A study of Mus musculus with 12 samples.

Results

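The proteasome genes described here are those that the deposited annotation places in the KEGG proteasome pathway, without the immunoproteasome subunits *Psmb8*, *Psmb9* and *Psmb10*. The rule gave 42 of the 21878 genes of the table, out of 45 in the pathway. Of the 42 genes, 39 reached 1 FPKM in 3 or more samples and were tested, beside 10675 genes tested in all. FPKM are fragments scaled by transcript length and by the mapped fragments of the library, so levels can be compared between genes. The other 3 genes were near 0 and were not tested. *Psma8* and *Psmb11*, the core subunits used in testis and thymus, were listed at 0 to 0.699 and at 0 to 0.0704 FPKM. *Ifng* encodes the cytokine interferon gamma and is no subunit, and it was listed at 0 to 1.44 FPKM. The name constitutive therefore holds for most of the genes and not for all, because the pathway also lists *Psme1*, *Psme2* and *Psme2b*, activator genes of the kind that interferon induces. *Psme2b* is a close copy of *Psme2*, and reads may be divided between them, so its values are uncertain.

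RNA was measured in mouse AT2 cells, the surfactant-producing alveolar epithelial cells, in 4 groups of 3 biological replicates. AT2-PBS and AT2-BLM came from *Atg5*f/f mice, which carry the floxed allele and which the labels call wild type, given PBS or bleomycin (BLM), which damages DNA and injures alveoli. *Atg5*-/- AT2-PBS and *Atg5*-/- AT2-BLM came from Nkx2.1Cre;*Atg5*f/f mice, in which Cre is expressed in lung epithelium and not in AT2 cells alone, given the same agents. All mice were C57BL/6. The methods of the study give BLM at 2 U/kg into the trachea of male mice of 8 to 12 weeks and cells sorted as CD31-, CD34-, CD45-, EpCAM+, CD24- and Sca-1-. Day 14 is given for 3 of the groups, and no day is named for *Atg5*-/- AT2-PBS.

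*Atg5*, the targeted gene, was not called between the genotypes with PBS or with BLM. It was listed at 6.01 to 12.5 FPKM in AT2-PBS, 6.72 to 10.1 in *Atg5*-/- AT2-PBS, 9.97 to 11.1 in AT2-BLM and 8.37 to 8.84 in *Atg5*-/- AT2-BLM. With BLM the genotypes did not overlap and *Atg5*-/- AT2-BLM was lower, while with PBS they overlapped. The change of *Atg5* was -0.14 with PBS and -0.26 with BLM on the log2 scale, with neither called. FPKM over a whole gene may include reads from the exons left after a deletion. Read counts were not used here and the absolute depth is unknown, while steps in the low values place the relative depth at 0.93 to 1.15. Of 11 AT2 markers, 10 were at 29.7 FPKM or more in every sample, and *Sftpc* was listed at 0 in 11 of 12 samples, an exact 0 that can be a failed estimate. Their levels were not even across the groups. *Sftpa1*, *Abca3*, *Lamp3*, *Napsa*, *Etv5* and *Epcam* were lower in *Atg5*-/- AT2-PBS than in AT2-PBS with no overlap (*Epcam* at 102 to 110 against 130 to 179 FPKM). *Sftpb*, *Slc34a2*, *Cdh1* and *Nkx2-1* overlapped between these 2 groups. The 10 leukocyte markers summed to 17.1 to 68.8 FPKM in AT2-PBS, 69.8 to 172 in AT2-BLM and 69.9 to 270.0 in *Atg5*-/- AT2-BLM, against 853 to 1160.4 in *Atg5*-/- AT2-PBS. *Atg5*-/- AT2-PBS also had the highest sums of hepatocyte, fibroblast, alveolar macrophage and airway (ciliated and club) markers. Its airway sum was mostly the club cell gene *Scgb1a1*, at 22572 to 83587 FPKM. Of the ciliated markers, *Tppp3* overlapped with AT2-PBS (16.8 to 32.1 against 22.5 to 38.6 FPKM), while *Foxj1* was higher at low levels (0.598 to 0.798 against 0 to 0.0648). Summed Y-linked FPKM were at most 0.733 in 7 of 12 samples and at least 14.2 in the other 5, although the methods name male mice. All 3 *Atg5*-/- AT2-PBS samples were among the 7, and each of the other groups held samples of both kinds.

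The proteasome is the large protease that degrades proteins tagged with ubiquitin, and with autophagy it forms the main pair of routes by which cells remove proteins. Its barrel-shaped 20S core has outer alpha rings that gate the entrance and inner beta rings that hold the catalytic sites, and the 19S regulator caps the core, binds ubiquitin chains, removes them and unfolds the substrate with a ring of ATPases. In many cell types the transcription factor encoded by *Nfe2l1* raises proteasome genes together when the protease is impaired, while interferon raises the immunoproteasome subunits and the 11S activator.

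The promoters of 4 members described below are shown. They are *Psmb5* and *Psmb6*, catalytic subunits of the beta ring, *Psmd14*, the lid subunit with the largest change after BLM, and *Psme1*, an 11S activator gene. Each window runs from 250 bases before to 50 bases after the start of the gene in RefSeq, on assembly GRCm38.p6. The positions are chr14:54617946-54618245 on the minus strand for *Psmb5*, chr11:70525107-70525406 on the plus strand for *Psmb6*, chr2:61711444-61711743 on the plus strand for *Psmd14* and chr14:55578244-55578543 on the plus strand for *Psme1*. Capitals mark any match, on either strand, to TGACNNNGC (the core of the antioxidant response element, to which the products of *Nfe2l1* and *Nfe2l2* bind), to CCAAT (the CCAAT box), or to the core of an interferon response element, GAAA followed by any 2 bases and GAAA again.
Psmb5: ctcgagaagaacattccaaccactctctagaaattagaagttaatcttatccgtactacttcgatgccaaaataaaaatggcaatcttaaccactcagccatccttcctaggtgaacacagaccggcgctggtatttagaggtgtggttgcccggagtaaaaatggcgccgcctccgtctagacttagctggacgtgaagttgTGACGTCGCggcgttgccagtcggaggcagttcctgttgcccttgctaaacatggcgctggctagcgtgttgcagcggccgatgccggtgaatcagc
Psmb6: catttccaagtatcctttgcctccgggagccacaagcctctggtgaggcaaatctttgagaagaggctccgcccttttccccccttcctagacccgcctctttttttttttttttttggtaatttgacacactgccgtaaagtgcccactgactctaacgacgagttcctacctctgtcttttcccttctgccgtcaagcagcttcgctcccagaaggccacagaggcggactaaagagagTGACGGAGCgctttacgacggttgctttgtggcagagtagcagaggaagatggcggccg
Psmd14: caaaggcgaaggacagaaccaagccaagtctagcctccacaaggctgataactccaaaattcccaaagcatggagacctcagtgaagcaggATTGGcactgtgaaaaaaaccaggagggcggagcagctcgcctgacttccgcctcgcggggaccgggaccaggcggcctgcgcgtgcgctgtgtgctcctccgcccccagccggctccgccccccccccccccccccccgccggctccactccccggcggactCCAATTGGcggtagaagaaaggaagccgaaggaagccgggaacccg
Psme1: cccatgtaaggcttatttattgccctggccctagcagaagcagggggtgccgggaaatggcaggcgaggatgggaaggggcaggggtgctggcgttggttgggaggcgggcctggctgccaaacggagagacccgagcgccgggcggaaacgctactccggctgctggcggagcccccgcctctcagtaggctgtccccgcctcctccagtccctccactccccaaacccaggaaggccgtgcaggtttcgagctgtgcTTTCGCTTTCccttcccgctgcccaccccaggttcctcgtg
The *Psmb5* window holds TGACGTCGC 47 bases before the start, and the *Psmb6* window holds TGACGGAGC 9 bases before it. The *Psmd14* window holds 3 matches to CCAAT, with those 5 and 8 bases after the start overlapping on opposite strands. The *Psme1* window holds TTTCGCTTTC, a match on the minus strand, 10 bases after the start. Windows were found for 35 of the 42 genes. TGACNNNGC was in the windows of 6 of them (*Adrm1*, *Psmb5*, *Psmb6*, *Psmc6*, *Psmd12* and *Psme4*), or 17.1%, against 14% of all 26994 genes with a window. CCAAT was in 37.1% of the members and 41.0% of all genes, and the interferon response element core in 3 members (*Psmb3*, *Psmd4* and *Psme1*), or 8.57%, against 3.98%. These matches are letters in a window and were not tested for binding.

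In unchallenged *Atg5*f/f cells the members of each ring or subcomplex differed in level, by 2.14-fold to 9.51-fold between the lowest and the highest, although the subunits assemble in equal numbers. In AT2-PBS the group means ran from 19.9 FPKM for *Psma3* to 190 for *Psma2* in the alpha ring, and from 39.2 for *Psmb7* to 186 for *Psmb3* in the beta ring. They ran from 30.8 for *Psmc6* to 84.4 for *Psmc3* among the ATPases, and from 25.8 for *Psmd14* to 139 for *Psmd8* in the lid. Among the base subunits without ATPase activity they ran from 35.4 for *Psmd1* to 75.8 for *Adrm1*, the narrowest range. *Psme1* had the highest mean of all members, at 273 ± 17.2 FPKM (SD, n = 3), and *Psme4* the lowest of the tested ones, at 1.01 ± 0.378. *Psme4* encodes the PA200 activator.

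After BLM in *Atg5*f/f cells, transcripts of most 26S proteasome subunits were more abundant, with 22 of the 32 tested core and 19S genes called higher. Of all 39 tested members, 26 were called higher, that is at an unadjusted p under 0.05 in limma with a fold change of at least 1.4, and 0 were called lower. Over all tested genes, 20.6% were called higher and 7.77% lower. With Benjamini-Hochberg adjustment over all tested genes, 28 members were higher at an adjusted p under 0.05, against 13.4% of all genes. In 38 members the lowest AT2-BLM value exceeded the highest AT2-PBS value, a separation seen in 28.9% of all genes, and the exception was *Psme4*. Changes were estimated on log2(FPKM + 1), which understates the change of low genes. All 39 were positive, against 6810 of all 10675 tested genes, with a median of 0.67 against 0.17 over all tested genes. Both the sums of the core genes and those of the 19S genes were apart between the groups. The core genes summed to 1416 to 1567 FPKM in AT2-PBS and 2118 to 2591 in AT2-BLM, and the 19S genes to 976 to 1028 and 1466 to 1896.

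**Figure D1:**
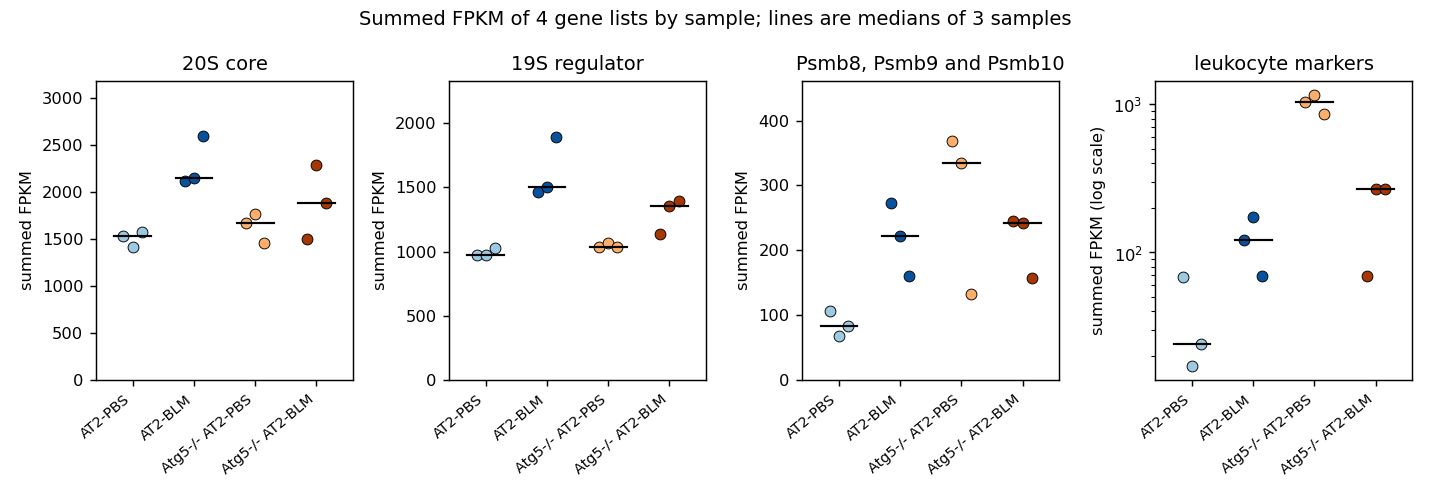
Summed FPKM (vertical axes, with a log axis for the leukocyte markers) of the 20S core genes, the 19S regulator genes, *Psmb8*, *Psmb9* and *Psmb10*, and 10 leukocyte markers in each sample (points), with the median of each group as a line. For the core and the 19S genes the 3 AT2-BLM samples lie above the 3 AT2-PBS samples, and the leukocyte markers reach 853 to 1160.4 FPKM in *Atg5*-/- AT2-PBS.

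Among the catalytic subunits, *Psmb5* changed most. *Psmb5*, on chromosome 14 from 55232644 to 55236851 of mm9, encodes the subunit with chymotrypsin-like activity. Its FPKM were 161, 145 and 91.6 in AT2-PBS replicates 1 to 3 and 287, 284 and 402 in AT2-BLM. The groups did not overlap, with replicate 3 the lowest in AT2-PBS and the highest in AT2-BLM. Its log2 change was 1.30 ± 0.22 (SE), a 2.47-fold rise (limma adjusted p = 0.00361), and it was also called with each sample left out. *Psmb7*, the subunit with trypsin-like activity, was at 38.6, 33.3 and 45.7 FPKM in AT2-PBS and 55.8, 57.5 and 63.7 in AT2-BLM. It rose by 0.59 ± 0.16 on the log2 scale (limma adjusted p = 0.0278), with no overlap. *Psmb6*, the subunit with caspase-like activity, was at 157, 135 and 163 FPKM in AT2-PBS and 192, 207 and 233 in AT2-BLM. The groups were apart, but its fold of 1.39 was under the criterion and its limma adjusted p was 0.0677.

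The unequal change altered the proportion of catalytic transcripts. The ratio of *Psmb5* to *Psmb6* FPKM was 1.03, 1.08 and 0.563 in AT2-PBS and 1.496, 1.37 and 1.73 in AT2-BLM. In *Atg5*-/- AT2-PBS it was 0.936, 0.959 and 0.949, and in *Atg5*-/- AT2-BLM 1.08, 1.02 and 1.10. All 3 AT2-BLM ratios were above all others, and the *Atg5*-/- AT2-BLM ratios were above the *Atg5*-/- AT2-PBS ratios and overlapped with those of AT2-PBS. With 3 samples against 3, an exact permutation test cannot go below p = 0.1, so these ratios are described only.

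In the rest of the core no increase was as large as that of *Psmb5*. *Psma5*, an alpha ring subunit, was at 38.6, 29.1 and 44.1 FPKM in AT2-PBS and 63.8, 63.0 and 83.8 in AT2-BLM. The groups were apart and it rose by 0.90 ± 0.22 (limma adjusted p = 0.019). *Psma4* (0.76) and *Psma6* (0.75) in the alpha ring, and *Psmb4* (0.69) and *Psmb1* (0.57) in the beta ring, were also called. In all, 7 of the 14 tested core genes were called, and the median log2 change of the core was 0.52. The other alpha genes *Psma1*, *Psma2*, *Psma3* and *Psma7* had log2 changes of 0.38 to 0.47, and *Psmb2* had the smallest change of the core, at 0.23.

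In the 19S regulator 15 of 18 genes were called, with a median log2 change of 0.69. *Psmd14*, on chromosome 2 from 61549751 to 61638433 of mm9, encodes the lid deubiquitinase that cuts whole chains from substrates. Its FPKM were 26.7, 24.6 and 26.1 in AT2-PBS and 53.5, 56.5 and 62.3 in AT2-BLM. These groups were far apart compared with the spread within either, and it rose by 1.12 ± 0.14, or 2.18-fold (limma adjusted p = 0.000871). *Adrm1*, which encodes the ubiquitin receptor RPN13, was at 82.4, 68.2 and 76.7 FPKM in AT2-PBS and 124, 129 and 167 in AT2-BLM. It rose by 0.87 ± 0.15 (limma adjusted p = 0.00341), with no overlap. The other base subunits without ATPase activity were called too, with log2 changes of 0.69 for *Psmd2*, the large scaffold RPN1, 0.56 for *Psmd4*, the ubiquitin receptor RPN10, and 0.53 for *Psmd1*, the scaffold RPN2. Of the ATPases, 5 of 6 were called, led by *Psmc5* at 0.84 and *Psmc4* at 0.80, while *Psmc3* stayed under the fold criterion at 0.45 (limma adjusted p = 0.0264). In the lid *Psmd6* (0.79), *Psmd12* (0.78), *Psmd13* (0.67), *Psmd8* (0.67) and *Psmd3* (0.63) were called beside *Psmd14*, and *Psmd7* and *Psmd11* were both at 0.46 and were not.

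Of the 5 activator genes tested, 4 were called higher, and *Psme4* was not. *Psme1* and *Psme2* encode the subunits of the 11S activator PA28, which opens the core without ATP. *Psme1* was at 266, 260.1 and 292 FPKM in AT2-PBS and 393, 380.3 and 424 in AT2-BLM, with no overlap and a rise of 0.55 ± 0.15 (limma adjusted p = 0.0296). *Psme2* was at 104, 99.6 and 126 FPKM in AT2-PBS and 214, 199 and 174 in AT2-BLM, also with no overlap, and rose by 0.83 ± 0.24 (limma adjusted p = 0.0362). *Psme2b*, at 16.1 to 21.5 and 32.5 to 35.0 FPKM, rose by 0.87 ± 0.27 (limma adjusted p = 0.0447). *Psme3*, the nuclear activator PA28 gamma, was at 14.02, 20.5 and 15.9 FPKM in AT2-PBS and 28.1, 27.0 and 25.7 in AT2-BLM. It rose by 0.67 ± 0.19 (limma adjusted p = 0.034). *Psme4* was at 1.42, 0.945 and 0.672 FPKM in AT2-PBS and 1.06, 0.703 and 1.34 in AT2-BLM, so the groups overlapped and the log2 change was 0.02 ± 0.28. At such low levels the scale understates a change, so a missing response cannot be told from a small one.

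*Pomp* encodes the chaperone that completes the core and is then degraded by it. It was at 196, 172 and 225 FPKM in AT2-PBS and 264, 259 and 290 in AT2-BLM. Every AT2-BLM sample was higher, and the log2 change of 0.46 ± 0.18 did not reach the fold criterion (limma adjusted p = 0.0987). *Psmf1*, which encodes the proteasome inhibitor PI31, was at 6.43, 10.1 and 8.64 FPKM in AT2-PBS and 10.6, 10.2 and 11.3 in AT2-BLM. Its lowest AT2-BLM value was just above the highest AT2-PBS value, and its log2 change of 0.34 ± 0.20 was not called.

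**Figure D2:**
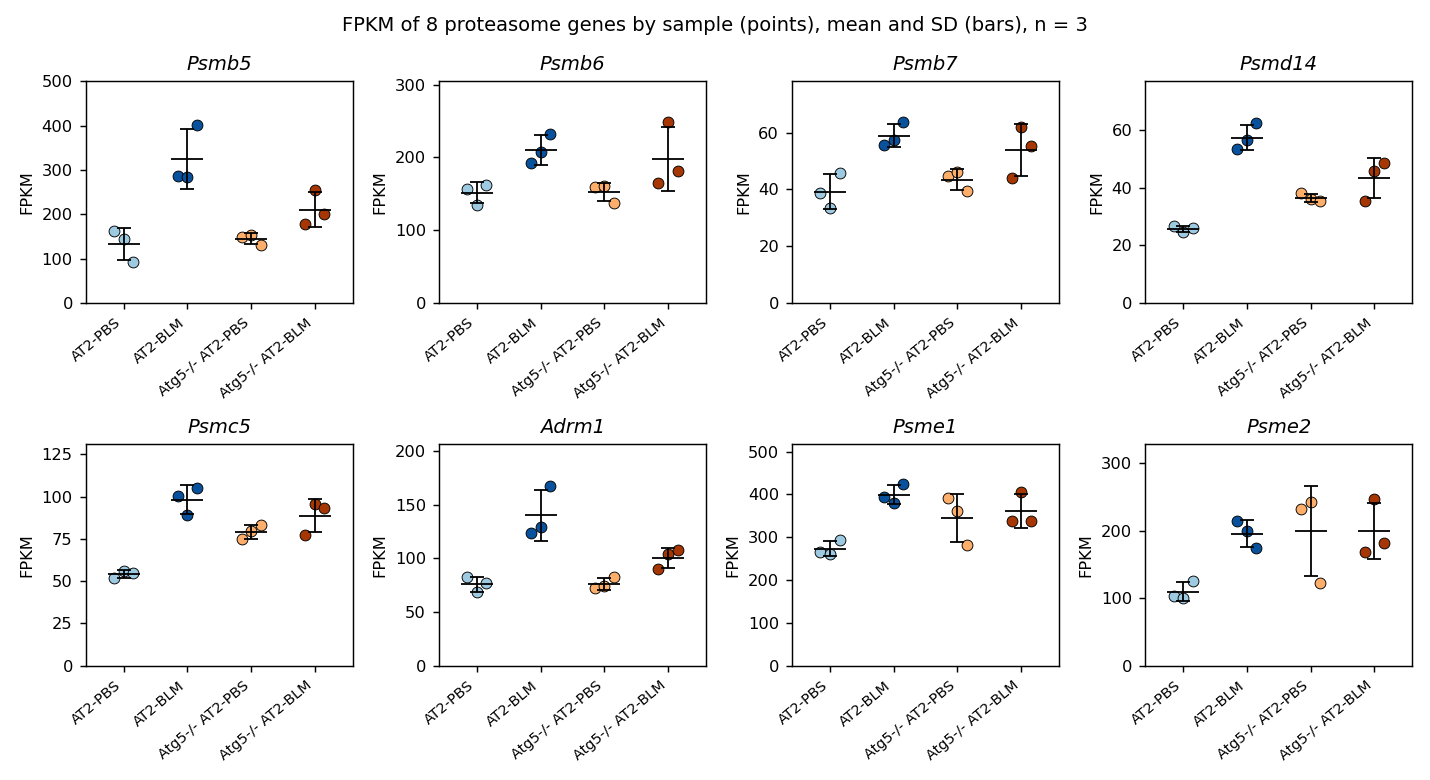
FPKM (vertical axes) of 8 proteasome genes in each sample (points) of the 4 groups, with the group mean and SD (n = 3). *Psmb5*, *Psmb7*, *Psmd14*, *Psmc5*, *Adrm1*, *Psme1* and *Psme2* rose in AT2-BLM against AT2-PBS with no overlap between the groups, and *Psmb5* and *Psmd14* reach 402 and 62.3 FPKM in AT2-BLM replicate 3.

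The size of the response to BLM rests partly on scaling. FPKM were higher in AT2-BLM for many genes, with 2202 genes called higher and 829 lower, and after quantile normalization the split was 1235 to 1398 and the median of all genes -0.02. The members then had a median of 0.42, with 14 called, all higher. With each sample scaled to *Cdh1*, 5 members were called higher, against 986 of all 10675 tested genes. They were *Adrm1*, *Psmb5*, *Psmc5*, *Psmc6* and *Psmd14*, and these 5 were called in all 18 alternative settings. *Cdh1* is no neutral reference here, at 105 to 138 FPKM in AT2-PBS and 143 to 149 in AT2-BLM, with no overlap. Its scaling factors ran from 0.671 in *Atg5*-/- AT2-PBS replicate 2 to 1.37 in *Atg5*-/- AT2-BLM replicate 1. Leukocyte markers also differed between these groups (17.1 to 68.8 against 69.8 to 172 FPKM). With their mean level as a covariate 21 members were called higher, 19 of the 26 among them, against 1469 of all tested genes. Markers of AT1 cells, the flat cells that line the alveolus, moved with the members as well. The 5 AT1 markers summed to 1860.4 to 2265 FPKM in AT2-PBS and 2337 to 3424 in AT2-BLM, with AT2-BLM replicate 3 the highest, and 4 of the 5 did not overlap between the groups. *Pdpn*, one of them, was at 1.00 to 6.57 and 31.2 to 62.5 FPKM. Airway markers were lower after BLM, with sums of 4826 to 11568 FPKM in AT2-PBS and 822 to 4942 in AT2-BLM, which overlapped. The part of AT1 and airway cells in the result was not tested. In bulk samples more cells of a type and more RNA per cell cannot be told apart.

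Loss of *Atg5* during BLM went with lower estimates for most proteasome genes, few of which passed the test. In *Atg5*-/- AT2-BLM against AT2-BLM, 36 of 39 members had a negative log2 change, against 6067 of all 10675 tested genes. The median of the members was -0.29, against -0.05 over all tested genes. By the criterion 1 member was called lower, *Psmb5*, against 3.12% of all genes. With adjustment in limma 0 members passed (0% of all genes in this direction), and at an unadjusted p under 0.05 there were 9, all lower, against 5.1%. In 11 members the highest *Atg5*-/- AT2-BLM value lay under the lowest AT2-BLM value, against 8.49% of all genes. These 11 were 4 core genes and 7 of the 19S regulator. The number called was 0 without AT2-BLM replicate 3, 4 and 3 without AT2-BLM replicates 1 and 2, and 6 without *Atg5*-/- AT2-BLM replicate 2 or 3. Without *Atg5*-/- AT2-BLM replicate 1 it was 1, *Psmf1* in place of *Psmb5*. These counts lack the share of all genes in the same fits and are not read as particular to the members. This comparison and that of AT2-BLM with AT2-PBS share the AT2-BLM samples, so a high AT2-BLM replicate 3 enters both. AT2-BLM replicate 3 was also the only sample of its group with high Y-linked FPKM. In *Atg5*-/- AT2-BLM, replicate 1 was the only sample with low Y-linked FPKM. Beyond the covariate fit, the part of this imbalance was not tested. AT1 marker sums overlapped here (2337 to 3424 FPKM in AT2-BLM and 2164 to 2549 in *Atg5*-/- AT2-BLM). Of the single AT1 markers, *Hopx* was lower with no overlap, at 10.3 to 24.2 FPKM in AT2-BLM and 7.67 to 9.73 in *Atg5*-/- AT2-BLM. The others overlapped, with *Pdpn* at 31.2 to 62.5 and 19.5 to 32.4 FPKM. The part of AT1 cells in this comparison was not tested.

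*Psmb5* was at 177, 254 and 199.98 FPKM in *Atg5*-/- AT2-BLM replicates 1 to 3, all below the lowest AT2-BLM value of 284. Its log2 change was -0.62 ± 0.22, a fold of 1.54, with an unadjusted p of 0.017 and an adjusted p of 0.618 in limma. Without AT2-BLM replicate 3 it was -0.46 and without *Atg5*-/- AT2-BLM replicate 1 it was -0.50, and in neither case was it called. *Psmd14* was at 35.5, 45.9 and 48.6 FPKM, also below all AT2-BLM samples, with a log2 change of -0.41 ± 0.14 (limma adjusted p = 0.613) under the fold criterion. *Adrm1* was at 90.1, 104 and 108 FPKM, again below all AT2-BLM samples, with -0.46 ± 0.15 (limma adjusted p = 0.607).

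The remaining catalytic genes and the activators overlapped between the BLM groups. *Psmb6* was at 165, 248 and 181 FPKM and *Psmb7* at 44.0, 62.2 and 55.3 in *Atg5*-/- AT2-BLM. Replicate 2 was the highest and replicate 1 the lowest for both genes, and their log2 changes were -0.11 ± 0.17 and -0.14 ± 0.16. *Psme2* was at 168, 247 and 182 FPKM (0.01 ± 0.24) and *Psme1* at 338, 406 and 338 (-0.15 ± 0.15). *Psme3*, at 26.0, 16.4 and 25.5 FPKM, and *Psmf1*, at 10.4, 6.03 and 8.81, had replicate 2 as the lowest instead. The log2 changes were -0.27 ± 0.19 for *Psme3* and -0.34 ± 0.20 for *Psmf1*. *Psme4* had the only positive change above 0.1, at 0.17 ± 0.28, with 0.654, 2.67 and 0.924 FPKM. *Pomp*, at 183, 288 and 238 FPKM, had a log2 change of -0.22 ± 0.18.

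**Figure D3:**
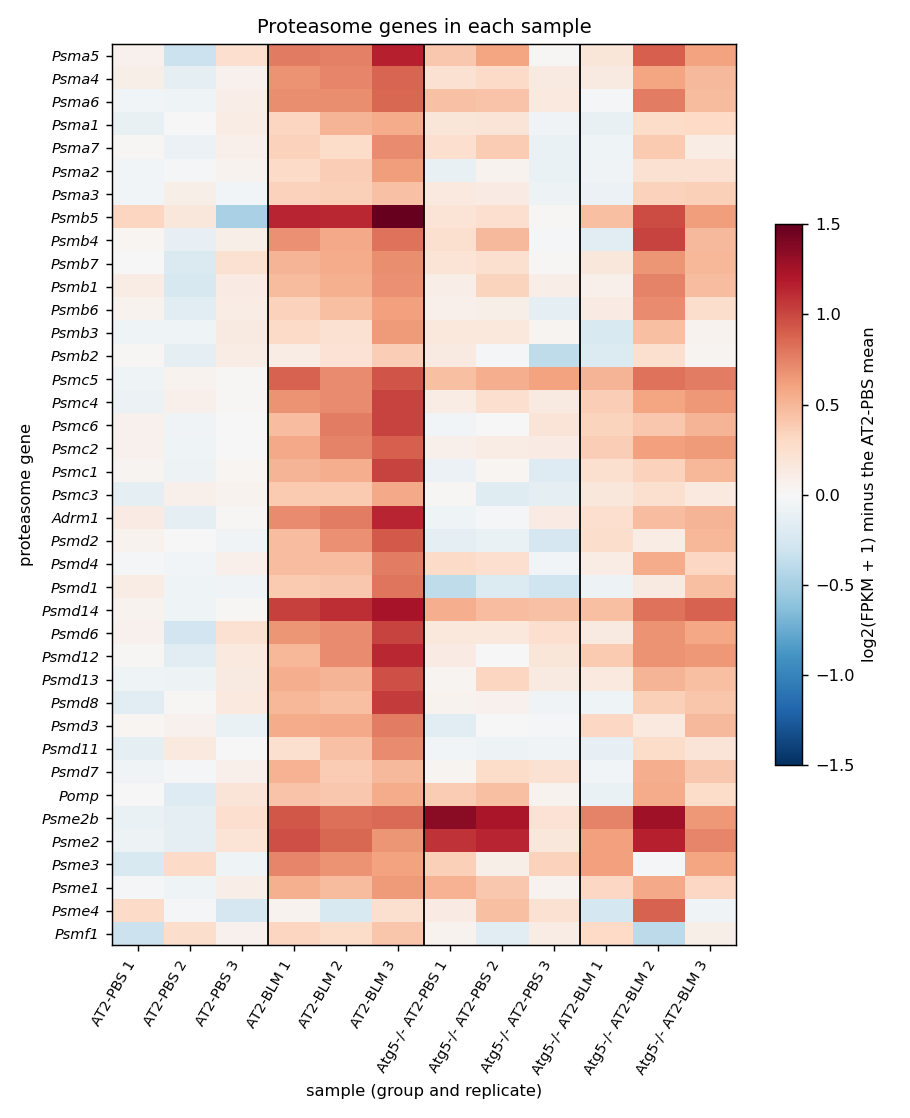
Log2(FPKM + 1) of the 39 tested members (rows) in each sample (columns, grouped), as the difference from the AT2-PBS mean of the gene (color scale in log2 units). AT2-BLM replicate 3 is the highest column for most core and 19S genes, and among the *Atg5*-/- AT2-BLM samples replicate 1 is the lowest for the core genes.

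In PBS-treated mice the genotypes differed in few proteasome genes. In *Atg5*-/- AT2-PBS against AT2-PBS, 3 members were called higher, *Psme2b*, *Psme2* and *Psmc5*, against 14.1% of all genes, and 0 were called lower, against 5.16%. With adjustment in limma 3 members were higher, *Psmc5*, *Psmd14* and *Psme2b*, against 9.92% of all genes. The median log2 change of the members was 0.16, against 0.02 over all tested genes, and 30 of 39 were positive, against 5573 of all 10675. *Psmc5*, on chromosome 11 from 106117468 to 106124434 of mm9, encodes the ATPase RPT6. It was at 51.8, 56.1 and 54.7 FPKM in AT2-PBS and 74.7, 79.5 and 83.0 in *Atg5*-/- AT2-PBS. The groups were apart, and it rose by 0.54 ± 0.13 (limma adjusted p = 0.0146). *Psmd14* was at 38.1, 36.0 and 35.2 FPKM in *Atg5*-/- AT2-PBS, all above the 3 AT2-PBS samples, and its log2 change of 0.48 ± 0.14 (limma adjusted p = 0.0405) was just under the fold criterion.

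*Psme2* was at 232, 243 and 123 FPKM in *Atg5*-/- AT2-PBS, where replicate 3 lay within the AT2-PBS range. Its log2 change was 0.80 ± 0.24 (limma adjusted p = 0.0571), and that of *Psme2b*, at 47.4, 43.3 and 21.0 FPKM, was 0.93 ± 0.27 (limma adjusted p = 0.0436). *Psme1*, at 392, 362 and 282 FPKM, also had replicate 3 as the lowest and was not called (0.32 ± 0.15). The immunoproteasome subunits outside the list were all called higher here, *Psmb8* by 1.62 ± 0.35, *Psmb9* by 1.63 ± 0.45 and *Psmb10* by 0.92 ± 0.24. *Psmb8* was at 268, 221 and 93.8 FPKM against 44.0 to 72.2 in AT2-PBS, again with replicate 3 the lowest of *Atg5*-/- AT2-PBS. Leukocyte markers summed to 1036, 1160.4 and 853 FPKM in these samples, against 17.1 to 68.8 in AT2-PBS. Alveolar macrophage markers summed to 901, 909.5 and 1274 FPKM, against 6.41 to 38.6 in AT2-PBS, so the marker lists differ in which replicate is the highest. With the mean leukocyte level as a covariate, the log2 changes were 0.25 ± 0.76 for *Psme2*, 0.73 ± 0.86 for *Psme2b* and 0.43 ± 0.42 for *Psmc5*, none of them called, *Psmf1* was the only member called (1.27 ± 0.52), and the median of all members was -0.12. In the PBS samples the leukocyte level and the genotype cannot be told apart.

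The catalytic genes did not differ detectably between genotypes with PBS. *Psmb5* was at 149, 154 and 131 FPKM in *Atg5*-/- AT2-PBS (log2 change 0.16 ± 0.22), *Psmb6* at 159, 161 and 138 (0.01 ± 0.17) and *Psmb7* at 44.8, 46.2 and 39.4 (0.15 ± 0.16). All of these overlapped with AT2-PBS, and replicate 3 was the lowest for each gene. *Pomp*, at 256, 269 and 204 FPKM, *Psme3*, at 21.6, 17.6 and 21.3, *Psme4*, at 1.17, 1.72 and 1.34, and *Psmf1*, at 8.59, 7.20 and 8.97, overlapped with AT2-PBS as well. The groups did not overlap in 8 members. In 6 of them *Atg5*-/- AT2-PBS was higher (*Psma4*, *Psma6*, *Psmc2*, *Psmc4*, *Psmc5* and *Psmd14*), against 18.1% of all genes, and in *Psmd1* and *Psmd2* it was lower, against 10.8%, at log2 changes of -0.30 and -0.16 that were not called. Both shares were under those of all genes.

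Within the *Atg5*-/- genotype the response to BLM was small. In *Atg5*-/- AT2-BLM against *Atg5*-/- AT2-PBS, 1 member was called higher, *Psmb5*, against 7.66% of all genes. With adjustment in limma 0 members were higher (2.42% of all genes), and at an unadjusted p under 0.05 there were 11, all higher, against 10.5%. Of these 11, 10 belonged to the 19S regulator, among them 5 of 6 ATPases. In 12 members the groups did not overlap, all higher after BLM, against 13.1% of all genes. The median log2 change was 0.20, against 0.06 over all tested genes. *Psmb5* rose by 0.52 ± 0.22 (limma adjusted p = 0.191), from 131 to 154 FPKM to 177 to 254 FPKM with no overlap. This call was lost when any of 5 samples was left out (*Atg5*-/- AT2-PBS replicates 1, 2 and 3 and *Atg5*-/- AT2-BLM replicates 2 and 3), with log2 changes of 0.38 to 0.57. *Psmd12*, a lid subunit, had a log2 change of 0.47 ± 0.17 and *Psmd1* one of 0.46 ± 0.16, both under the fold criterion. *Psme1*, *Psme2* and *Psme3* had log2 changes of 0.07, 0.04 and 0.13, all with overlap. The *Atg5*-/- AT2-PBS samples with their high marker sums for other cell types are the reference here, and AT1 markers were higher after BLM (1434 to 1725 against 2164 to 2549 FPKM). With the leukocyte covariate *Psmb5* was not called (0.82 ± 0.44), while *Psmb1* (0.72 ± 0.32) and *Psmc2* (0.62 ± 0.26) were called higher and *Psmf1* (-0.72 ± 0.33) lower. The part of the other cells in the result was not tested. With *Cdh1* scaling the median of the members was -0.26, against 0.20 without it, and 0 members were called.

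**Figure D4:**
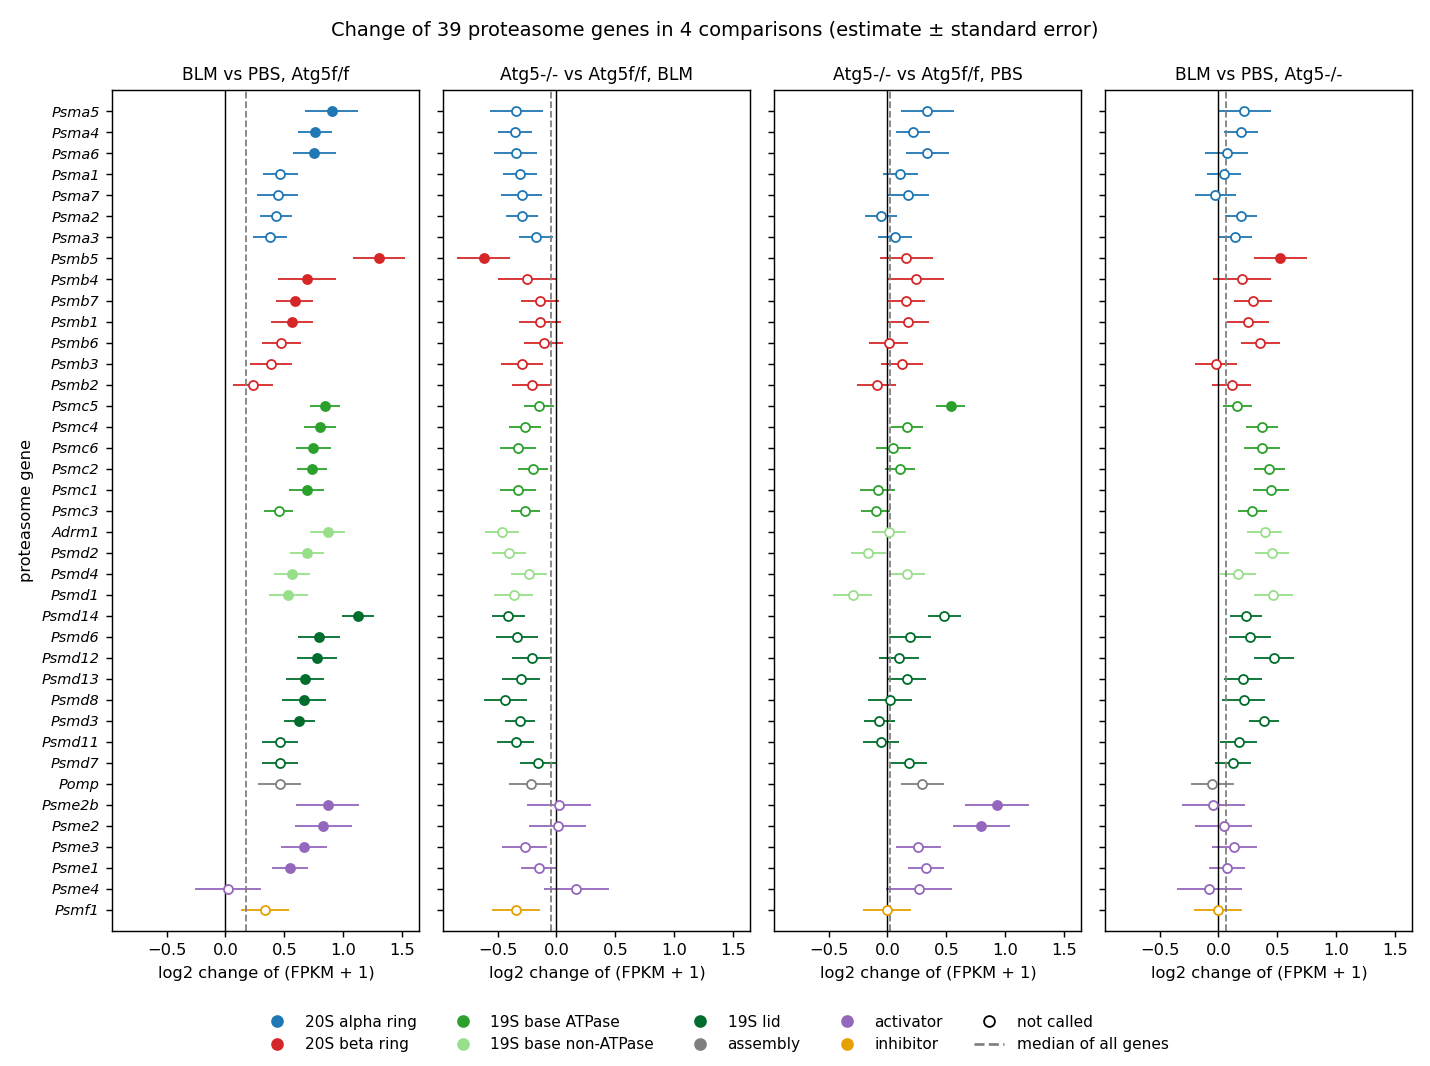
Log2 change (horizontal axes) with its standard error for the 39 tested members in 4 comparisons, by role, with filled points for called genes and a dashed line at the median of all tested genes. In the comparison of AT2-BLM with AT2-PBS all 39 lie right of 0 and 26 are filled, and in the other 3 comparisons 1, 3 and 1 are filled.

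The difference between genotypes in the response to BLM was tested directly as an interaction. This comparison uses the same samples as those above, so it is not independent of them. All 39 members had a negative estimate, that is, a smaller BLM effect in *Atg5*-/- than in *Atg5*f/f cells, against 6135 of all 10675 tested genes. The median of the members was -0.41, against -0.09 over all tested genes. By the criterion 7 members were called lower, against 15.2% of all genes, and 0 higher, against 5.02%. With adjustment in limma 2 members were lower, against 7.11% of all genes. These were *Psmd14*, at -0.89 ± 0.19 (limma adjusted p = 0.0163), and *Psmc5*, at -0.68 ± 0.18 (limma adjusted p = 0.0382). *Psmc5* was at 100.6, 89.0 and 105 FPKM in AT2-BLM and 77.4, 95.8 and 93.2 in *Atg5*-/- AT2-BLM. For both genes the higher level in *Atg5*-/- AT2-PBS than in AT2-PBS enters the estimate, beside the levels after BLM.

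The other called members were *Psme2b* (-0.91 ± 0.38), *Psme2* (-0.79 ± 0.34), *Psmb5* (-0.78 ± 0.32), *Psma6* (-0.68 ± 0.26) and *Psma4* (-0.56 ± 0.20). *Psma6* was at 73.1 to 81.8 FPKM in AT2-PBS, 84.3 to 104 in *Atg5*-/- AT2-PBS, 124 to 140 in AT2-BLM and 75.1 to 131 in *Atg5*-/- AT2-BLM. The share called for the members, 7 of 39, is near that of all genes, and the estimates of the members and of all genes shift with scaling. After quantile normalization 2 members were called and the median of all genes was 0.15, against -0.17 for the members. With the leukocyte covariate 0 of the 7 members were called, at log2 estimates of -0.74 to -0.03 with SE of 0.40 to 0.82. The median of the members was then -0.25, and 2 other members were called lower, *Psmf1* (-1.46 ± 0.50) and *Psme3* (-1.25 ± 0.54). Most estimates in that fit were negative but not all, with *Psmb4* at 0.52 ± 0.67 and *Psmb1* at 0.42 ± 0.49. With Y-linked expression as a covariate 23 members were called, 6 of the 7 among them. With 1 sample left out the number ran from 3 (without *Atg5*-/- AT2-BLM replicate 1) to 17 (without *Atg5*-/- AT2-BLM replicate 2). It was 4 without *Atg5*-/- AT2-PBS replicate 1 or 2 and 13 without *Atg5*-/- AT2-PBS replicate 3. The share of all genes called in each of these fits is not given, so the counts are not read as particular to the members.

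Other genes of the degradation routes, from lists that hold no member, changed in part. In each list the shares called are to be read against those of all genes, 20.6% higher and 7.77% lower after BLM in *Atg5*f/f cells. Of the 3 immunoproteasome subunits, *Psmb8* (1.45 ± 0.35) and *Psmb9* (1.22 ± 0.45) rose after BLM in *Atg5*f/f cells, and *Psmb10* did not pass (0.41 ± 0.24). The ratio of *Psmb8* to *Psmb5*, which it replaces in the immunoproteasome, was 0.303 to 0.636 in AT2-PBS and 0.310 to 0.681 in AT2-BLM, so that the groups overlapped. In *Atg5*-/- AT2-PBS it was 1.80, 1.44 and 0.717, above all AT2-PBS samples. Of the 6 assembly chaperones tested, *Psmg1* rose after BLM in *Atg5*f/f cells (0.58 ± 0.17), and *Psmg4* was higher in *Atg5*-/- AT2-PBS than in AT2-PBS (0.71 ± 0.22).

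Among 8 genes of transcriptional control, *Nfe2l2* (0.83 ± 0.27) and *Ddi2* (0.67 ± 0.17) rose after BLM in *Atg5*f/f cells, a share near that of all genes. *Nfe2l2* encodes the regulator of the oxidative stress response, and *Ddi2* the protease that activates the *Nfe2l1* product. *Nfe2l2* was at 168, 69.1 and 106 FPKM in AT2-PBS and 216, 203 and 159 in AT2-BLM, which overlapped. It also rose after BLM in *Atg5*-/- cells, by 0.65 ± 0.27. *Nfe2l1* itself was at 15.2 to 28.5 FPKM in AT2-PBS and 28.7 to 30.6 in AT2-BLM and was not called (0.40 ± 0.24). Of 15 ubiquitin, E1 and shuttle genes, *Usp14*, which encodes a deubiquitinase bound to the 19S base, rose after BLM (0.54 ± 0.20), and the shuttle gene *Ubqln2* (-0.65 ± 0.29) and *Zfand5* (-1.10 ± 0.40) fell. The counts were thus 1 higher and 2 lower of 15, against 20.6% and 7.77% of all genes. The shuttle gene *Ubqln1* was the only one of the 15 called in *Atg5*-/- AT2-BLM against *Atg5*-/- AT2-PBS (0.55 ± 0.23). *Ubb*, the ubiquitin gene with the highest level of those examined, was not called in any comparison and had a log2 change of -0.17 ± 0.17 after BLM.

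Of 22 autophagy genes, 4 rose after BLM in *Atg5*f/f cells and 0 fell, a share that rose no larger than that of all genes (20.6%). They were *Sqstm1* (0.82 ± 0.26), *Atg12* (0.78 ± 0.19), *Atg16l1* (0.61 ± 0.23) and *Nbr1* (0.56 ± 0.20). *Atg12* and *Atg16l1* encode the partners of Atg5 in its conjugate, and *Sqstm1* and *Nbr1* encode receptors that bring ubiquitin-tagged cargo to autophagosomes. The median of the list was 0.17, the same as over all tested genes. *Sqstm1* was at 508 to 702 FPKM in AT2-BLM and at 385, 355 and 398 in *Atg5*-/- AT2-BLM, with no overlap, and fell by 0.59 on the log2 scale with *Atg5* loss during BLM (SE 0.26, limma adjusted p = 0.621). It was the only one of the 22 called in that comparison, and 0 were called in *Atg5*-/- AT2-PBS against AT2-PBS or in *Atg5*-/- AT2-BLM against *Atg5*-/- AT2-PBS (limma unadjusted p under 0.05 in 0 of them as well).

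In the interaction, *Psmb8* (-1.74 ± 0.49) and *Psmb9* (-1.41 ± 0.64) of the immunoproteasome were called lower, as were the assembly chaperone *Psmg4* (-0.80 ± 0.31), *Ddi2* (-0.63 ± 0.24), *Sqstm1* (-0.95 ± 0.37) and *Gabarapl1* (-0.64 ± 0.29), which encodes a relative of LC3. The shuttle gene *Rad23b* was called higher (0.49 ± 0.21). These were 1 of 6 assembly chaperones, 1 of 8 genes of transcriptional control, 2 of 22 autophagy genes and 1 of 15 ubiquitin, E1 and shuttle genes, against 15.2% of all genes lower and 5.02% higher.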

How the data were processed

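RNA from AT2 cells of 12 samples was sequenced on an Illumina HiSeq instrument from stranded mRNA libraries. The values deposited by the authors are FPKM per gene, made with Cufflinks 2.2.1 on mm9. The submitters' processing notes also name Trimmomatic 0.36, HISAT2 2.2.1.0 and HTSeq 0.9.1, while the methods name STAR for alignment. Read counts were not used here, so the absolute depth and the counting error are unknown.

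Groups followed the sample titles. All genes reaching 1 FPKM in 3 or more samples were fitted on log2(FPKM + 1) with limma 3.58.1 in R 4.3.3 (lmFit, eBayes with trend), with 4 group means in 1 fit of the 12 samples. Calls used the criteria of the study, an unadjusted p under 0.05 and a fold of at least 1.4, and Benjamini-Hochberg adjusted p over all tested genes is given beside them. The replicates are labelled biological. Each p-value sets a group difference against a spread between samples, pooled over the 4 groups and moderated by that of all tested genes. The members and lists were chosen with earlier results of these data known. Values by sample are given for *Psmb5*, *Psmb6*, *Psmb7*, the activators, *Psmf1*, *Pomp* and up to 5 called members with the largest changes in each comparison, and other genes of the routes are named where called or, for immunoproteasome subunits, always. *Psmd1*, *Psmd2*, *Psmd12*, *Nfe2l1* and *Ubb* were added after their values were seen. Alternatives changed the pseudocount, filter, scaling, samples, replicate block, variance trend, thresholds and covariates, or left out each sample. Motifs were searched on both strands with Python 3.11.15.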

Additional observations from a re-analysis of the deposited data

Results flagged for a closer look

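The effect of BLM differed between the genotypes at an adjusted p under 0.05 (limma interaction term, Benjamini-Hochberg over all tested genes) for 2 proteasome members and 1 immunoproteasome gene. For *Psmd14* the difference was -0.89 on the log2 scale (SE 0.19, limma adjusted p = 0.0163). It remained called in 22 of 23 alternative settings, the exception being the leukocyte covariate (-0.44, with a wider SE of 0.40). For *Psmc5* it was -0.68 (SE 0.18, limma adjusted p = 0.0382), called in 21 of 23 settings. It was not called under quantile normalization (-0.46) or with the leukocyte covariate (-0.59, with a wider SE of 0.40). For *Psmb8* it was -1.74 (SE 0.49, limma adjusted p = 0.0496), and it was not called with the leukocyte covariate (-1.29, with a wider SE of 1.04). In *Psmb8* the samples of AT2-PBS (44.0 to 72.2 FPKM) lay below all of *Atg5*-/- AT2-PBS (93.8 to 268), and those of AT2-BLM (125 to 195) overlapped with *Atg5*-/- AT2-BLM (111 to 172). Leukocyte markers, at 853 to 1160.4 FPKM in *Atg5*-/- AT2-PBS and at most 270.0 in the other groups, moved with the same reference group, and beyond the covariate fit their part in these differences was not tested.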

How the results depend on the processing

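For AT2-BLM against AT2-PBS, 26 members were called with a median of 0.67. Quantile normalization gave 14 and 0.42, *Cdh1* scaling 5 and 0.43, and median-ratio scaling a median of 0.49. For *Atg5*-/- AT2-BLM against AT2-BLM (1 called, median -0.29), *Cdh1* scaling gave 0 and -0.12, the adjusted threshold 0, a fold of 1.2 gave 9, the Y-linked covariate 3, the leukocyte covariate 2, and quantile normalization a median of -0.16. For *Atg5*-/- AT2-PBS against AT2-PBS (3 called, median 0.16), *Cdh1* scaling gave 6 and 0.54, the Y-linked covariate 5, the leukocyte covariate 1, not among the 3, and a reversed median of -0.12, and quantile normalization a median of 0.0029. For *Atg5*-/- AT2-BLM against *Atg5*-/- AT2-PBS (1 called, median 0.20), 0 were called with median-ratio scaling, with *Cdh1* scaling (reversed median of -0.26), at the adjusted threshold and with the Y-linked covariate (median 0.059), while a fold of 1.2 gave 11 and the leukocyte covariate 3 (2 higher and 1 lower, without *Psmb5*) with a median of 0.38. For the interaction (7 called, median -0.41), quantile normalization gave 2 and -0.17, median-ratio scaling 3, *Cdh1* scaling 3 and -0.63, the adjusted threshold 2, the Y-linked covariate 23 and -0.56, and the leukocyte covariate 2, neither among the 7, and -0.25. The cause was not tested. Counts given without the share of all genes in the same fit are not read as particular to the members. With 1 sample left out, the calls in this order of comparisons ran from 23 to 31, 0 to 6, 3 to 4, 0 to 6 and 3 to 17, and the medians from 0.52 to 0.66, -0.35 to -0.17, 0.10 to 0.18, 0.14 to 0.32 and -0.48 to -0.29. In *Atg5*-/- AT2-BLM against *Atg5*-/- AT2-PBS, 0 were called without *Atg5*-/- AT2-PBS replicate 1 or *Atg5*-/- AT2-BLM replicate 3, 2 without *Atg5*-/- AT2-PBS replicate 2 and 6 without *Atg5*-/- AT2-BLM replicate 1.

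Scaling moved the split of all called genes: for AT2-BLM against AT2-PBS it was 2202 higher and 829 lower, and 1235 and 1398 after quantile normalization, 1467 and 1303 with median-ratio scaling and 986 and 1288 with *Cdh1* scaling. For *Atg5*-/- AT2-BLM against AT2-BLM 218 higher and 333 lower became 268 and 261 with median-ratio scaling and 355 and 90 with *Cdh1* scaling, for *Atg5*-/- AT2-PBS against AT2-PBS 1507 and 551 became 1177 and 1587 after quantile normalization and 2731 and 79 with *Cdh1* scaling, for *Atg5*-/- AT2-BLM against *Atg5*-/- AT2-PBS 818 and 1144 became 1148 and 1069 after quantile normalization and 118 and 2444 with *Cdh1* scaling, and for the interaction 536 and 1620 became 1362 and 1123 after quantile normalization and 212 and 1795 with *Cdh1* scaling. In the fit with a replicate block, 26, 1, 3, 1 and 8 members were called. The numbers were not taken to pair the samples, since deviations of same-numbered samples correlated at -0.295 to 0.227. None of the called members or route genes named here reversed in any alternative. Depth is unknown, so no counting interval could be given.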

Other observations

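The members took 0.774%, 0.762% and 0.787% of summed FPKM in AT2-PBS, 0.769%, 0.735% and 0.740% in *Atg5*-/- AT2-PBS, 1.01%, 0.831% and 1.27% in AT2-BLM and 0.857%, 1.04% and 0.983% in *Atg5*-/- AT2-BLM. All 6 BLM shares were above all 6 PBS shares. The total of AT2-BLM replicate 2 includes 112570 FPKM of *Sftpc*, which was listed at 0 in the other 11 samples. The totals of *Atg5*-/- AT2-PBS include 22572 to 83587 FPKM of *Scgb1a1*, against 1049 to 2101 in *Atg5*-/- AT2-BLM. The shares thus depend on single abundant genes, and shares without them were not computed. The ratio of *Psmd14* to *Psmd7*, lid subunits that pair in the complex, was 0.434 to 0.488 in AT2-PBS and 0.523 to 0.650 in *Atg5*-/- AT2-PBS. It was 0.653 to 0.779 in AT2-BLM and 0.551 to 0.644 in *Atg5*-/- AT2-BLM, so AT2-BLM lay above all other groups and AT2-PBS below them.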
